A study of Mus musculus with 6 samples.

Results

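Glucose enters heart muscle cells through facilitative transporters of the Slc2a family and leaves glycolysis as lactate through Ldha, Ldhb and the Slc16a carriers, and the RNA of 8 such genes was followed here in hearts with and without an activated human SRY transgene. The genes were Slc2a1, Slc2a3, Slc2a4, Slc2a8, Ldha, Ldhb, Slc16a1 and Slc16a3, chosen by name because they hold the fetal-type and adult-type glucose transporters and the main genes of lactate handling. Of these 8 genes, 7 were matched by gene symbol to 11 of the 25697 probes on the array, and Ldhb was not analysed here. A probe counted as above background on an array at a detection p-value under 0.05 and was tested where 3 or more of the 6 arrays met this, as was so for 8 of the 11 probes and 6 of the 8 genes.

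The hearts came from 6 male FVB mice (FVB/N background) at postnatal day 6, 3 hSRY-ON and 3 hSRY-OFF, and each heart was hybridised to its own array. The hSRY-ON mice carried Signalox-hSRY, a single copy placed at the H11 locus, in which Cre had removed a floxed DsRed2 cassette so that the CAG promoter drove FLAG-tagged human SRY together with EGFP. The Cre protein came from the egg of a Ddx4-Cre mother, so recombination took place in the fertilised egg and the transgene was active throughout the body rather than in heart muscle alone. The arrayed hSRY-ON mice did not themselves carry Ddx4-Cre. The methods use the name hSRY-OFF for mice with the unrecombined transgene, whereas the control littermates are elsewhere described as carrying Ddx4-Cre alone or neither transgene, and the labels do not say which of these the 3 arrayed controls were. The hSRY-ON pups were also growth-retarded and lacked milk in the stomach, so that the transgene and feeding state cannot be told apart in these hearts. The human transgene itself was not measured, and the probe for mouse Sry was above background in 0 of 6 hearts.

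Slc2a1 encodes GLUT1, the basal glucose transporter that predominates in the fetal heart, and Slc2a4 encodes GLUT4, the transporter that insulin and contraction bring from intracellular vesicles to the cell surface and that takes over after birth. Slc2a3 encodes GLUT3, a high-affinity transporter best known from neurons and leukocytes, and Slc2a8 encodes GLUT8, a largely intracellular one. The Ldha and Ldhb subunits form lactate dehydrogenase, which interconverts pyruvate and lactate, and Slc16a1 (MCT1) and Slc16a3 (MCT4) carry lactate across the plasma membrane together with a proton.

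The 250 bases before the annotated start of 3 of these genes are shown, Slc2a1 and Slc16a3 because both were higher in the hSRY-ON hearts, and Ldha because it had the most matches to the hypoxia response core without a change that passed the test. The sequences are from RefSeq on GRCm38.p6, each on the plus strand of the genome and of the gene, at chr4:119108495-119108744, chr11:120948817-120949066 and chr7:46845554-46845803. Capitals mark every match to ACGTG, the core of the hypoxia response element, read on either strand.
Slc2a1: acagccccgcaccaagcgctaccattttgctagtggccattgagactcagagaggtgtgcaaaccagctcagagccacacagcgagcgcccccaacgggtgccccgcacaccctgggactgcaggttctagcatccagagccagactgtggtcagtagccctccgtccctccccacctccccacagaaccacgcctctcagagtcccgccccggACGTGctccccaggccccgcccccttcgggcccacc
Slc16a3: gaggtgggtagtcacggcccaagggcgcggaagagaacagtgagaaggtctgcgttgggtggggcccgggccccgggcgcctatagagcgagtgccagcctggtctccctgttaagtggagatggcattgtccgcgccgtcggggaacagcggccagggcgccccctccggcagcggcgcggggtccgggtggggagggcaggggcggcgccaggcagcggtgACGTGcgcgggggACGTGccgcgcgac
Ldha: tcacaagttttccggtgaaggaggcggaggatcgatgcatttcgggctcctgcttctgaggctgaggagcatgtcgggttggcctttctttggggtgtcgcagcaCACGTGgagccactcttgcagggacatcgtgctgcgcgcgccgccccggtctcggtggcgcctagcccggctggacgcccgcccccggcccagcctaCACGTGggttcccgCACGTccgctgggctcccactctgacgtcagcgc

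The promoter table held 7 starts for 6 of the genes, and Slc2a3 and Slc2a4 were not in it. Slc2a1 had 1 match to ACGTG, at 36 to 32 bases before the start. Slc16a3 had 2, at 27 to 23 and 14 to 10 bases. Ldha had 3, counting overlapping matches once, and 2 of them lay within CACGTG, the E-box that MYC and carbohydrate response factors bind. Slc16a1 had 1, also within CACGTG, and the windows of Slc2a8, Ldhb and the other start of Ldha had 0. Among all 32851 promoters searched in the same way, 16.6% held ACGTG, 6.02% held CACGTG and 32.7% held GGGCGG, the GC box, of which the Slc2a1 window had 2. AACAAT, a core that SRY and SOX proteins bind, was found in 9.42% of promoters and among these genes only in the Slc2a8 window, 216 to 211 bases before the start. These are matches of letters in a window, and no binding was measured.

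Of the 6 genes tested, 4 passed limma's test at an adjusted p-value under 0.05, taken over all 12970 probes tested. Slc2a1, Slc2a3 and 1 of the 2 tested probes of Slc16a3 were higher in hSRY-ON hearts, and Slc2a4 was lower. That Slc16a3 probe met the filter for testing through the hSRY-ON hearts alone. Over all 9660 genes with a tested probe, 28.8% passed in either direction, 14.9% higher and 13.9% lower, and over all tested probes 27.5% passed, 13.8% higher and 13.7% lower, so that a call in these hearts was common. The members' count is therefore a description of these genes and is not evidence that transport genes were affected more than others.

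Slc2a1 (probe ILMN_1258159) was measured at 815, 636 and 529 intensity units in the hSRY-OFF hearts and at 1212, 1888 and 932 units in the hSRY-ON hearts. After background correction and normalization between arrays, its log2 intensities were 9.17, 8.59 and 9.11 in hSRY-OFF and 10.19, 10.77 and 9.73 in hSRY-ON. The groups did not overlap, as was so for 45.2% of all tested probes (all hSRY-ON hearts above in 23.6%, below in 21.6%), although hSRY-ON replicate 2 stood well above the other 2 hSRY-ON hearts and hSRY-OFF replicate 2 below the other 2 controls. Slc2a1 rose 2.42-fold, a log2 fold change of 1.27 with a standard error of 0.28 and a 95% interval of 0.63 to 1.92 (limma, adjusted p = 0.0129, n = 3 per group). Without each heart in turn the change ranged from 1.01 to 1.52 and the adjusted p reached 0.0458, so the call held but stood close to the threshold.

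Slc2a4 (probe ILMN_1222333) went the other way. Its intensities were 1594, 1569 and 1139.6 units in hSRY-OFF hearts and 467, 672 and 543 units in hSRY-ON hearts. The normalized log2 intensities were 10.30, 10.16 and 10.41 against 8.52, 9.07 and 8.78, so that the 3 hSRY-ON hearts all lay more than 1 log2 unit below the lowest control. Slc2a4 fell by 1.50 on the log2 scale with a standard error of 0.16, a 2.82-fold lower level (95% interval -1.88 to -1.12, adjusted p = 0.000881 by limma, n = 3 per group). Its direction and call were the same in all 11 other processing settings and in the 6 fits that left out a heart, with values of -1.63 to -1.26.

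Within each heart, the normalized log2 intensity of Slc2a1 minus that of Slc2a4 was -1.12, -1.58 and -1.30 in the hSRY-OFF hearts and 1.67, 1.70 and 0.94 in the hSRY-ON hearts. The probes have their own brightness, so the zero of this difference says nothing about which RNA was more abundant. The shift between groups, 2.77 log2 units from -1.33 ± 0.23 to 1.44 ± 0.43 (mean ± SD, n = 3), describes the opposite movement of the fetal-type and the adult-type transporter. No separate test of it was made.

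Slc2a3 (probe ILMN_2616565) also rose. It was measured at 316, 311 and 254 units in hSRY-OFF hearts and at 543, 552 and 468 units in hSRY-ON hearts, or 7.19, 6.97 and 7.47 against 8.81, 8.72 and 8.50 as normalized log2 intensities. Every hSRY-ON heart was above every control, and the 3 hSRY-ON values were tight. The change was 1.46 on the log2 scale with a standard error of 0.16, 2.76-fold (95% interval 1.08 to 1.85, adjusted p = 0.000941 by limma, n = 3 per group). Without background correction it was 0.94, still called.

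**Figure D1:**
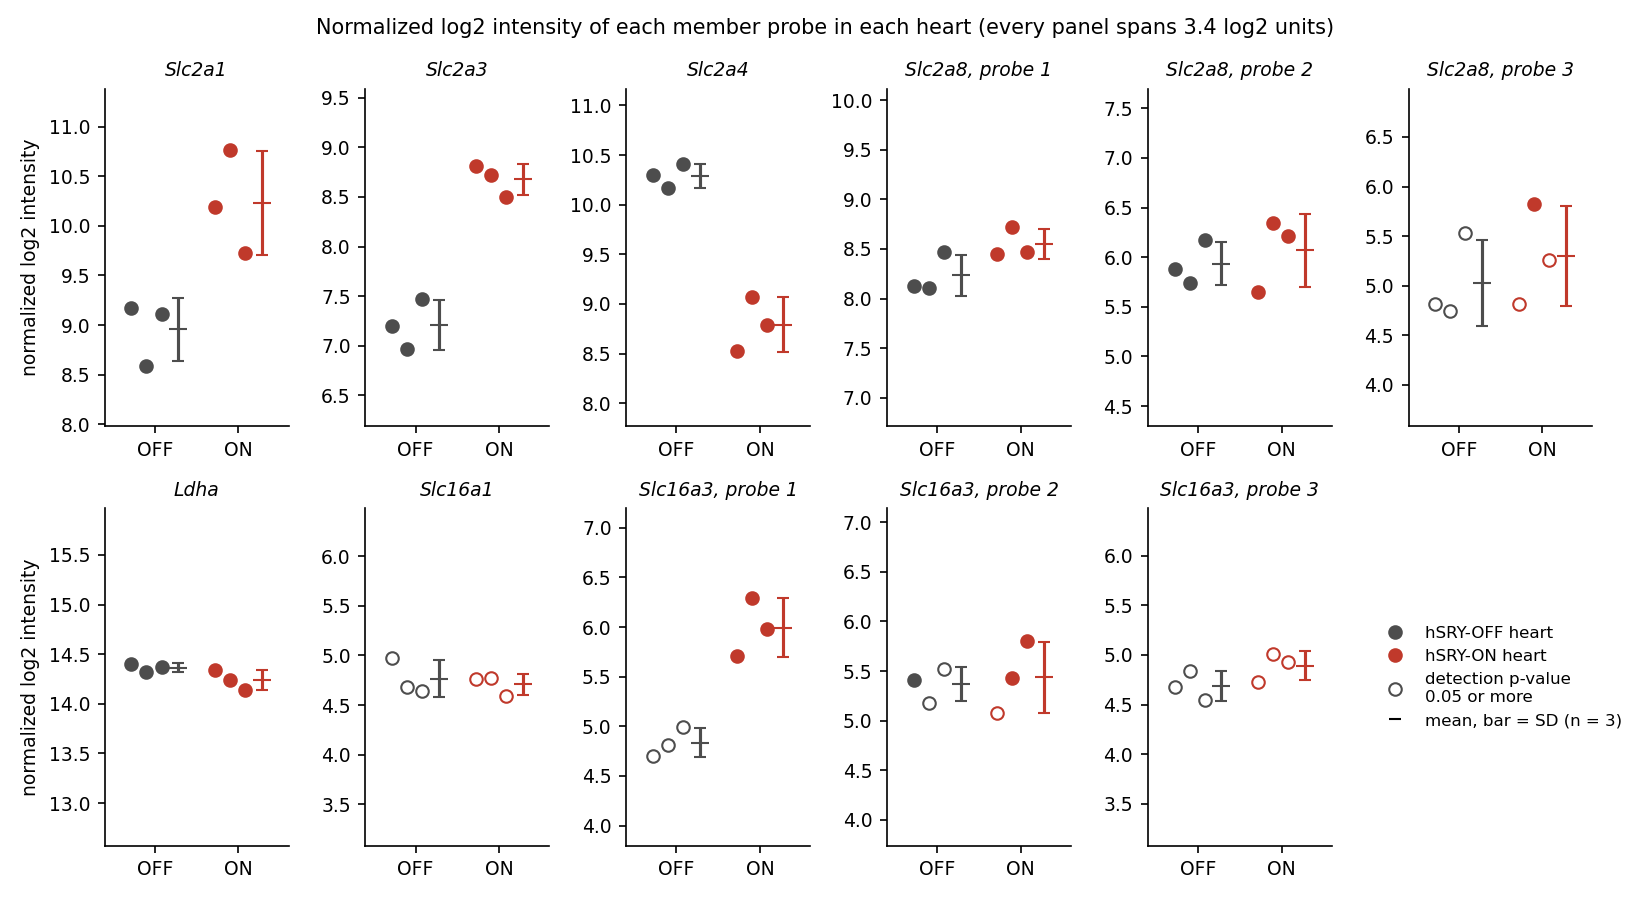
Normalized log2 intensity of each of the 11 probes in each of the 6 hearts, with the mean and SD of each group beside the points, and open points where the probe was not above background. The groups stand apart for Slc2a1, Slc2a3, Slc2a4 and the first Slc16a3 probe, and overlap for Ldha and Slc2a8. Probes are numbered in the order in which the text describes them.

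Slc2a8 did not pass the test on either of its tested probes. The brighter probe (ILMN_1213148) had normalized log2 intensities of 8.13, 8.10 and 8.47 in hSRY-OFF hearts and 8.45, 8.72 and 8.47 in hSRY-ON hearts, and the groups overlapped. Its difference was 0.31 with a 95% interval of -0.04 to 0.66 (adjusted p = 0.16 by limma), which leaves room for a rise of up to 0.66 but not for one of the size seen for Slc2a3. The dimmer probe (ILMN_2696642) gave 0.13 with an interval of -0.35 to 0.62 (adjusted p = 0.675 by limma), and the other probe was above background on 1 of 6 arrays and was not tested.

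On the lactate side, Ldha (probe ILMN_1257965) was among the brightest probes on the array, above 99.3% of the tested probes in mean level. Its intensities were 25667, 25768 and 18704 units in hSRY-OFF hearts and 18491, 17411 and 16549.9 units in hSRY-ON hearts, and hSRY-OFF replicate 3, the dimmest array of the 6, was low before normalization. The normalized log2 intensities were 14.40, 14.32 and 14.37 against 14.35, 14.24 and 14.14, and the groups overlapped. The difference was -0.13 with a 95% interval of -0.39 to 0.14 (adjusted p = 0.456 by limma), so that a change as large as that of the glucose transporters would have been outside the interval. The 2 brightest values, before normalization, were those of hSRY-OFF replicates 1 and 2, whose arrays had the highest mean intensity over all probes.

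Slc16a1 was not above background on any of the 6 arrays, at 173, 168 and 134 units in hSRY-OFF hearts and 149.6, 153 and 139 units in hSRY-ON hearts, and was not tested. For Slc16a3 the 3 probes disagreed. The probe ILMN_3149256 was not above background in any hSRY-OFF heart, at 159, 176 and 147 units. It was above background in all 3 hSRY-ON hearts, at 180.5, 210.4 and 189 units. It thus met the filter for testing through the hSRY-ON hearts alone, and its p-value is conditional on that. On the background-corrected scale the mean hSRY-ON level was at least 1.48-fold higher. Measured log2 means were 4.83 in hSRY-OFF and 5.99 in hSRY-ON (adjusted p = 0.0028 by limma, n = 3 per group). That bound compares the hSRY-ON mean with the lowest signal counted as above background on each control array, or with the probe's own signal where higher. It concerns group means on the corrected scale and has no interval, so it is not a minimum under other processing. The same holds for the bounds given below for other genes. Without background correction the fitted difference was 0.35, against 1.16 with it, and was called in both.

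The second Slc16a3 probe (ILMN_3163569), above background in 1 hSRY-OFF and 2 hSRY-ON hearts, overlapped between groups and differed by 0.07 (95% interval -0.39 to 0.53, adjusted p = 0.832 by limma). The remaining Slc16a3 probe (ILMN_3162980) was not above background on any array. The higher level of Slc16a3 thus rests on 1 dim probe of 3. Which of the 3 probes reads the transcript best was not tested.

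**Figure D2:**
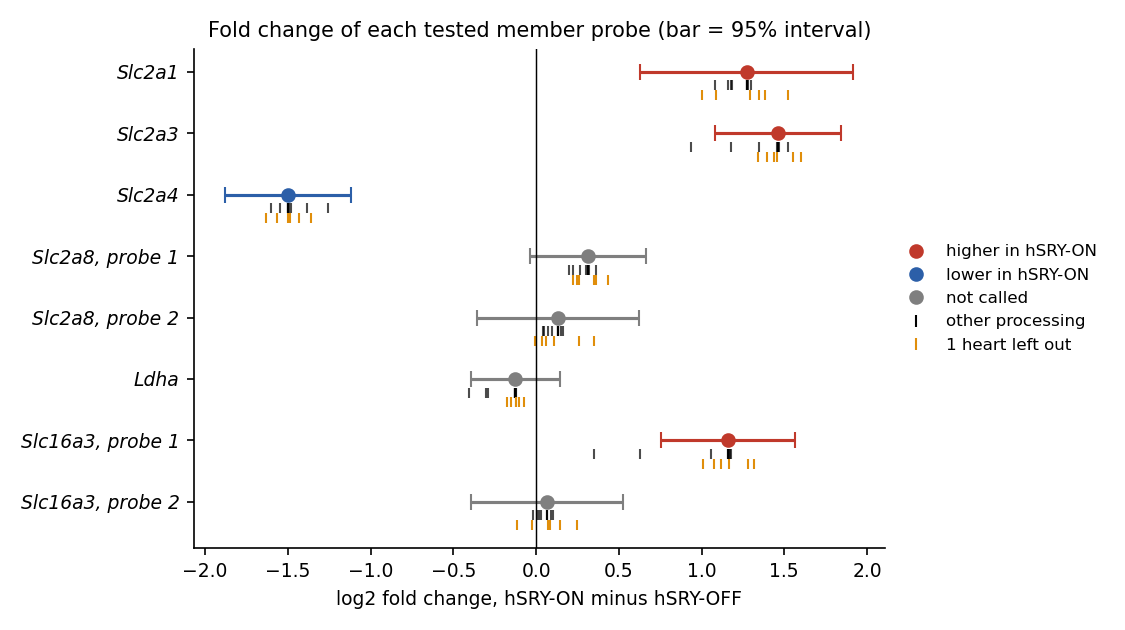
Log2 fold change of the 8 tested probes, hSRY-ON minus hSRY-OFF, with the 95% interval as a bar, and small ticks for the same change under other processing (black) and with 1 heart left out (orange). The ticks of the 4 called probes stay on one side of 0, from 0.35 upward for those that rose and from -1.26 downward for Slc2a4.

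Each count of calls on a gene or marker list below stands beside 28.8% of all tested genes called, 14.9% higher and 13.9% lower. Among the other sugar transporters, 3 of the 5 genes tested, of 14 on the array, were higher and 0 were lower. Their median log2 fold change was 0.86, against 0.003 over all tested genes. Slc45a3, a proton-coupled sugar transporter, rose by 1.78 with a standard error of 0.39 (adjusted p = 0.0134). Slc2a10, which encodes GLUT10, rose by 1.19 with a standard error of 0.18 (adjusted p = 0.00289), and its second probe rose by 0.72 (adjusted p = 0.0331). Slc45a4 rose by 0.86 with a standard error of 0.13 (adjusted p = 0.00319). Without background correction the change of Slc45a3 was 0.90 and that of Slc2a10 was 0.65, both still called. The sodium-coupled transporters Slc5a1 and Slc5a2 and the fructose transporter Slc2a5 were not above background on any array.

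Of the other monocarboxylate carriers and their partner proteins, 6 were tested, of which 1 was higher and 2 were lower, with a median of -0.32. The number higher was 2 without hSRY-ON replicate 1, with the replicate number as a block, with an intensity trend and with array quality weights. Slc16a6 was at 0.87 with all hSRY-ON hearts above the controls but did not pass (adjusted p = 0.0667). Emb, which encodes embigin, a membrane glycoprotein that accompanies monocarboxylate transporters to the cell surface, rose by 1.18 with a standard error of 0.20 (adjusted p = 0.00487), and by 0.47 without background correction. Bsg, which encodes basigin, the partner of MCT1 and MCT4, was above background in all hSRY-OFF hearts and in 0 hSRY-ON hearts on both of its probes. Its brighter probe was at least 1.34-fold lower in hSRY-ON hearts, with measured log2 means of 5.75 and 5.11 (adjusted p = 0.0125). Slc16a13 fell by 0.70 with a standard error of 0.12 (adjusted p = 0.00496). Bsg, Slc16a13 and, among the sugar transporters, Slc45a4 lost the call without normalization between arrays, and Bsg also without background correction, where Slc16a13 was at -0.26.

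The other enzymes and carriers of lactate and pyruvate moved down where they moved: of 5 tested, 3 were lower and 0 higher, with a median of -1.03. Gpt (listed as Gpt1), which interconverts alanine and pyruvate in the cytosol, fell by 1.77 with a standard error of 0.13 (adjusted p = 0.000211). Its mitochondrial counterpart Gpt2 fell by 1.03 with a standard error of 0.16 (adjusted p = 0.00354), and by 0.62 without background correction. Mpc2 (listed as Brp44), a subunit of the carrier that brings pyruvate into mitochondria, fell by 1.24 with a standard error of 0.13 (adjusted p = 0.000801), while Mpc1, the other subunit, was not analysed here. Ldhd, the D-lactate dehydrogenase, and the malic enzyme Me2 were at -0.28 and -0.24 and did not pass. Among hexokinases, which trap glucose by phosphorylation, Hk1 was at -0.47 with a standard error of 0.25 (adjusted p = 0.202), and passed only with array quality weights among the settings tried, at -0.70. The ADP-dependent glucokinase Adpgk rose by 0.54 (adjusted p = 0.019), a call lost without hSRY-OFF replicate 1, hSRY-OFF replicate 2, hSRY-ON replicate 1 or normalization between arrays. Hk2 was not analysed here.

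Of 40 tested genes of insulin signalling and GLUT4 trafficking, 7 were higher, 5 were lower and 28 did not pass, 30% in all and close to the 28.8% of all genes. The 4 with the largest changes were all higher: Prkab2, a regulatory subunit of AMP-activated kinase, by 1.61, Rab4a, a small GTPase of endosomal recycling, by 1.34, Pik3cb, a catalytic subunit of phosphoinositide 3-kinase, by 1.26, and Igf1r, the receptor for insulin-like growth factors, by 1.22, each with a standard error of 0.16 to 0.25. Prkab2 was at 0.86 without background correction, still called. Insr, the insulin receptor, was at -0.28 (adjusted p = 0.395) and above background in 2 hSRY-OFF hearts and 1 hSRY-ON heart. Akt2, the kinase that links the insulin receptor to GLUT4, was above background in hSRY-OFF hearts alone and at least 1.28-fold lower in hSRY-ON hearts, with measured log2 means of 5.69 and 4.99 (adjusted p = 0.0153). Without hSRY-OFF replicate 1 or without hSRY-ON replicate 1 the call of Akt2 was lost, as it was without background correction or normalization between arrays. Tbc1d4, which restrains GLUT4 vesicles until insulin acts, was not above background on any array. The number called lower on this list was 1 without hSRY-ON replicate 1 or without normalization between arrays, 2 without hSRY-OFF replicate 2 and 3 without hSRY-OFF replicate 1. The number called higher was 12 with array quality weights.

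Of 26 tested regulators of glucose transporter genes or proteins, 3 were higher, 7 were lower and 16 did not pass, with a median of -0.13. The share called was 38.5%, against 28.8% of all genes. Myc, among those higher, was above background in the hSRY-ON hearts alone. Ppara and Srebf1, among those lower, were so in the hSRY-OFF hearts alone. Mlxipl, which encodes the carbohydrate response factor ChREBP, fell by 2.63 with a standard error of 0.21 (adjusted p = 0.000293), and by 1.31 without background correction. The coactivator gene Ppargc1b fell by 1.35 with a standard error of 0.21 and the nuclear receptor gene Esrra by 0.90 with a standard error of 0.13. Arrdc4, an arrestin that lowers glucose uptake, rose by 1.06 with a standard error of 0.18, whereas its relative Txnip, at log2 means of 12.64 and 12.80, differed by 0.17 (adjusted p = 0.59). The oxygen-sensing genes Hif1a and Egln3 were at -0.24 (adjusted p = 0.439) and -0.53 (adjusted p = 0.113). With the replicate number as a block Egln3 passed as lower, at an adjusted p of 0.0343. Mef2c, a factor that binds the Slc2a4 promoter, was at -0.29 (adjusted p = 0.219) and Ppargc1a at -0.63 (adjusted p = 0.209), and neither passed. Klf15 was not above background on enough arrays to be tested, and Mef2a was not analysed here. The counts on this list fell to 1 higher without hSRY-ON replicate 1 and to 4 lower without hSRY-OFF replicate 1, and to 1 higher and 4 lower without normalization between arrays.

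**Figure D3:**
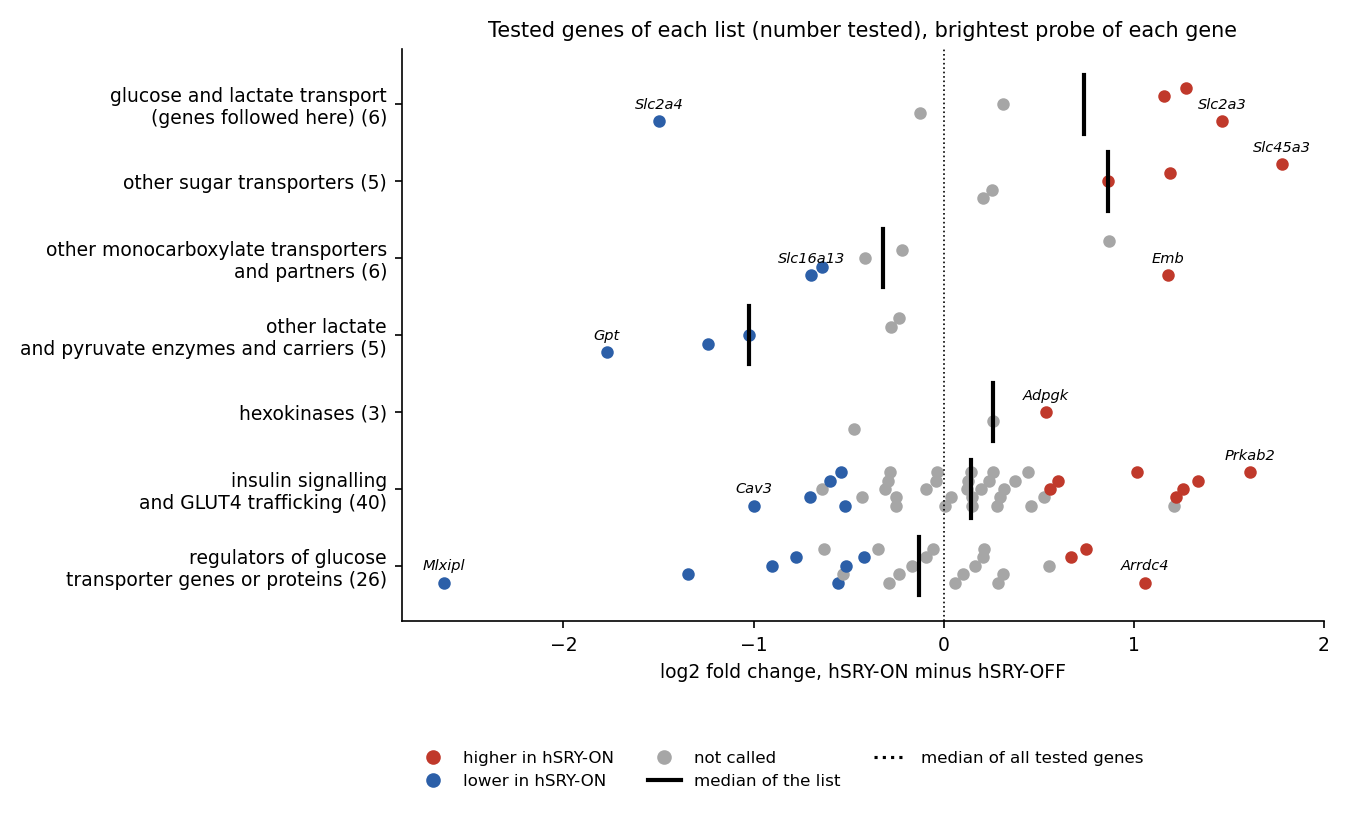
Log2 fold change, hSRY-ON minus hSRY-OFF, of the tested genes of each list, 1 point per gene at its brightest probe, with the list's median as a black bar and the median of all tested genes as a dotted line. Sugar transporters lie to the right, the lactate and pyruvate enzymes to the left, and the insulin list on both sides of 0.

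The genes most like Slc2a1 over the 6 hearts by Pearson correlation of normalized log2 intensity were Gpr182, B3galnt1 and D730039F16Rik, with r of 0.997, 0.996 and 0.996. Those most like Slc2a4 were Parp8, Rilp and Mrpl2, with r of 0.999, 0.999 and 0.998. With 2 groups of 3 hearts such correlations mostly carry the difference between groups, and 194 genes for Slc2a1 and 417 for Slc2a4 had r over 0.95. The 3 genes like Slc2a1 rose by 0.97, 0.95 and 1.23, and those like Slc2a4 fell by 1.01, 1.90 and 0.60.

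RNA of whole hearts mixes cell types, and a lower level can come from fewer cells of a type or from less RNA per cell, which cannot be told apart here. Heart muscle markers were present as the labels say, with a summed intensity of 320755 to 338968 units in hSRY-OFF hearts and 285199 to 304751 in hSRY-ON hearts. Of 16 such markers 6 were lower and 2 higher. Tnni3, cardiac troponin I, fell by 1.13, while Nkx2-5 and Tbx5 rose by 0.68 and 1.09. The number higher was 1 in each fit without a heart, apart from the fit without hSRY-OFF replicate 3. The heart muscle sum includes very bright probes. Among them, Myl2 and Nppa each had the same normalized value in all 3 hSRY-ON hearts, at log2 means of 15.37 and 15.42. The endothelial sum, 39016 to 41687 units against 37080 to 40962 in hSRY-ON hearts, overlapped between groups, while 7 of 11 tested endothelial markers passed in opposite directions, 3 higher and 4 lower. Vwf rose by 1.32 and Cldn5 fell by 1.48. The number lower was 2 without hSRY-OFF replicate 1, hSRY-OFF replicate 2 or hSRY-ON replicate 1. Of 7 tested erythroid markers 3 were lower and 0 higher, Hbb-b1 by 1.29, Hbb-b2 by 1.20 and Tfrc by 1.42, and this count was the same in all settings. The erythroid sum, 56341 to 69298 units in hSRY-OFF hearts and 53340 to 59686 units in hSRY-ON, overlapped, but it was mostly the signal of Hba-a1, whose normalized value was the same in all 3 hSRY-ON hearts.

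Like Slc2a1, Slc2a3 and the called Slc16a3 probe, macrophage markers were mostly higher in hSRY-ON hearts. Their summed intensity was 4608 to 5878 units in hSRY-OFF hearts and 10390.1 to 10898 in hSRY-ON hearts, and 7 of 11 tested markers were higher and 0 lower, among them Lyz2 by 1.02, C1qc by 1.12 and Cd68 by 0.99. Csf1r, Aif1 and Fcgr1, at 0.40, 0.06 and 0.19, did not pass. Emr1 was at -0.21 and did not pass, above background in 2 hSRY-OFF hearts and 1 hSRY-ON heart. Itgam was not above background on any array. Cd163, among the 7 higher, was above background in the hSRY-ON hearts alone. The part of macrophages in the higher Slc2a3 and Slc16a3 was not tested. The sum of neuronal markers was 969 to 1115 units in hSRY-OFF hearts and 1708 to 2207 in hSRY-ON hearts, mostly through Uchl1. Of 3 tested neuronal markers 1 was higher, Uchl1 by 1.35, and 1 was lower, Stmn2 by 0.52 (adjusted p = 0.0334 by limma). The number lower was 0 without normalization between arrays, with the replicate block and in each fit without a heart, apart from that without hSRY-ON replicate 1. The defining markers Snap25, Syt1, Nefl and Th were not above background on any array.

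Adipocytes and skeletal muscle also express Slc2a4. The adipocyte sum was 1889 to 2641 units in hSRY-OFF hearts and 1101 to 3661 in hSRY-ON hearts, and overlapped. It was mostly the signal of Cidea and Ucp1, which went in opposite directions. Their log2 means in hSRY-OFF and hSRY-ON hearts were 10.92 and 9.86 for Cidea, and 6.18 and 9.85 for Ucp1. Of 4 tested adipocyte markers 2 were higher and 0 lower, with a median of 1.37. Adipoq rose by 1.48 (adjusted p = 0.0265 by limma), while Cfd was at 1.26 and did not pass. Ucp1, the uncoupling protein of brown fat, rose by 3.67 (adjusted p = 0.0395 by limma) with overlapping groups. Cidea went the other way, at -1.05 with all hSRY-ON hearts below the controls, and did not pass (adjusted p = 0.0691 by limma). The number higher was 0 without hSRY-OFF replicate 1, hSRY-OFF replicate 2 or hSRY-ON replicate 1, and 1 without hSRY-ON replicate 2 or 3. Without hSRY-ON replicate 1, background correction or normalization between arrays, 1 adipocyte marker was called lower. The same number was lower with an intensity trend or with normexp at offset 50. Plin1, Cidec, Lep and Retn were not above background on any array. Fabp4 was above background in 2 hSRY-OFF hearts and 0 hSRY-ON hearts, and was not tested. The skeletal muscle sum was 552 to 704 units in hSRY-OFF hearts and 375 to 438 in hSRY-ON hearts. Of 5 tested skeletal muscle markers 3 were lower, as Slc2a4 was, and 1 was higher. Tnni2 fell by 1.91 and Myh8 by 1.42 (not called without hSRY-ON replicate 1), Pvalb was at least 1.42-fold lower (log2 means of 5.83 and 4.76), and Actn3 was at least 3.10-fold higher (log2 means of 4.77 and 7.06). Myh4, Myh1, Tnnt3 and Tnnc2 were not above background on any array. The part of adipocytes and skeletal muscle in the lower Slc2a4 was not tested. The fibroblast sum was 36367 to 37869 units in hSRY-OFF hearts and 37909 to 39046 in hSRY-ON hearts, without overlap. Of 8 tested fibroblast markers 2 were higher and 0 were lower, 25% in all against 28.8% of all genes. The 2 were Tcf21, by 0.76, and Fbln2, by 0.83. The number lower was 2 without hSRY-ON replicate 3 and 3 with an intensity trend or array quality weights, and the number higher was 1 without hSRY-OFF replicate 1 and 0 without normalization between arrays. Of 4 tested platelet markers 0 passed by limma, and 1 was lower without hSRY-OFF replicate 2 and in 5 of the 11 other settings.

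**Figure D4:**
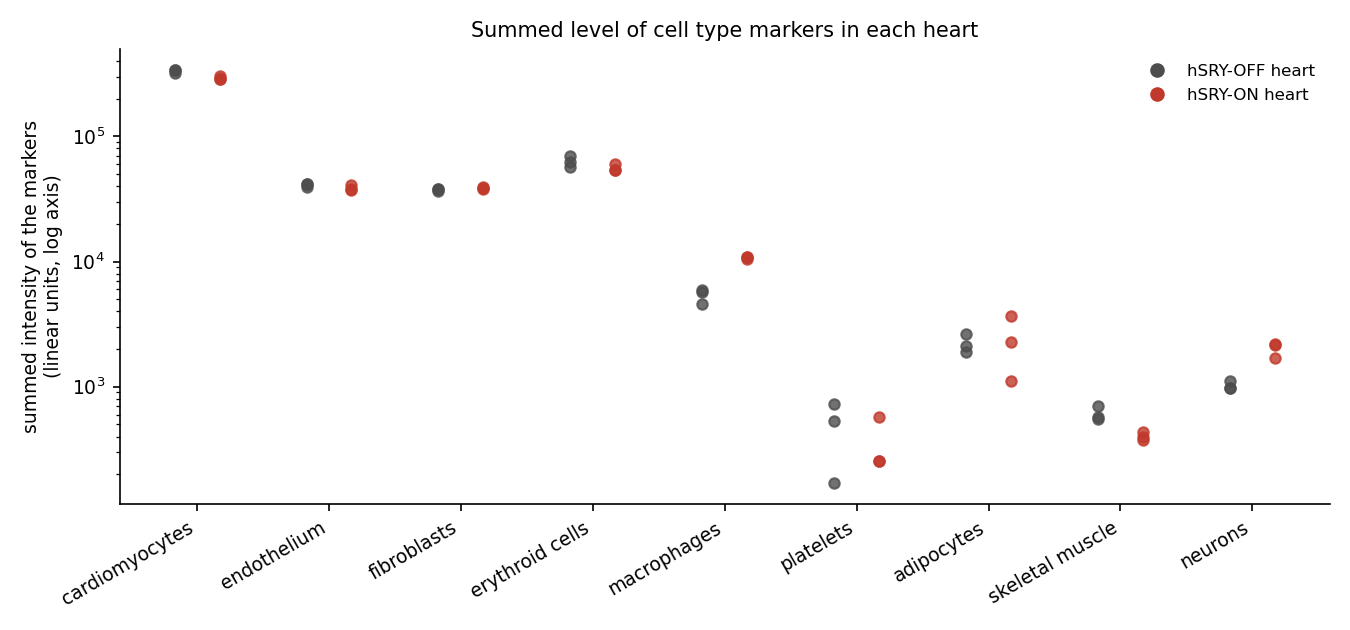
Summed background-corrected intensity of the markers of each cell type in each heart, on a log axis, with 3 hSRY-OFF and 3 hSRY-ON hearts for each type. Heart muscle markers are the brightest. The macrophage, neuron and fibroblast sums of all hSRY-ON hearts are above those of all hSRY-OFF hearts. For fibroblasts the gap is narrow, from 37869 units in the highest hSRY-OFF heart to 37909 in the lowest hSRY-ON heart. The heart muscle and skeletal muscle sums of all hSRY-ON hearts are below those of all hSRY-OFF hearts.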

How the data were processed

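Total RNA of 3 hSRY-ON and 3 hSRY-OFF hearts was labelled as biotinylated cRNA and hybridised to Illumina MouseRef-8 v2.0 BeadChips. The table deposited by the authors holds, per probe and array, a mean bead intensity, not normalized, and a detection p-value. The submitters' processing notes name limma without a version, and the methods name TCC with settings not given in the sources used here. The study describes the samples as biological triplicates.

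The members and gene lists were chosen with earlier results of these data known. Intensities were background-corrected with normexp from the detection p-values, offset 16, quantile normalized and put on the log2 scale by neqc of limma 3.58.1 in R 4.3.3, since the deposited intensities are linear. Probes with a detection p-value under 0.05 on at least 3 of 6 arrays were tested with lmFit and eBayes, hSRY-ON minus hSRY-OFF, with Benjamini-Hochberg adjustment over all 12970 tested probes and calls under 0.05. An exact permutation test of 3 against 3 cannot go below p = 0.1, so none was used. The steps were tested on simulated data.

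Between 12138 and 13172 probes (47.2% to 51.3%) were above background per array, and 0 pairs of arrays were identical. The number of arrays limits the precision. A gene on a list was represented by its brightest tested probe. Other probes were given for the members and Slc2a10, and for Bsg only as above background or not. Named were every probe of the members, up to 4 called genes per list with the largest changes among those whose groups did not overlap, a fixed set of transport and signalling genes, the 3 genes most like Slc2a1 and Slc2a4, and markers. Slc5a1, Slc5a2, Slc2a5, Slc2a10's second probe, Ldhd, Me2, Slc16a6, Myc, Ppara, Srebf1 and the cell type markers with values were named besides, after their values were seen. The alternatives tried are in the closing section. Promoter windows came from RefSeq (GRCm38.p6).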

Additional observations from a re-analysis of the deposited data

How the results depend on the processing

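The calls and directions of Slc2a1, Slc2a3, Slc2a4 and the Slc16a3 probe ILMN_3149256 held in every alternative that tested them and in all 6 fits without a heart, over background correction, normalization, probe filter and model. The number of probes called, 3567 in the reported fit, was 1897 without normalization between arrays, where 38.5% of calls were higher instead of 50.1% and the median of all probes moved by -0.12, and 2239 to 3714 with 1 heart left out, lowest without hSRY-OFF replicate 1. Without that normalization Ldha was at -0.41 and was not called. Signs turned only for values close to 0 that were never called: Slc2a8 probe ILMN_2696642 to -0.0060 without hSRY-ON replicate 2 (range -0.0060 to 0.35 with 1 heart left out), Slc16a3 probe ILMN_3163569 to -0.018 without normalization between arrays, -0.03 without hSRY-OFF replicate 2 and -0.11 without hSRY-ON replicate 3 (range -0.11 to 0.25), and Txnip to -0.0060 with array quality weights and -0.037 without hSRY-ON replicate 2 (range -0.037 to 0.31). The cause was not tested. Without background correction fold changes were smaller, by over 1.5 times for Slc2a3, Slc16a3, Mlxipl and other genes given in the report. The filters that dropped Slc16a3 left 2 members called higher.

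Replicate numbers are shared between groups, and the labels do not say whether the numbers pair the hearts. Deviations from the group mean correlated at -0.02, 0.04 and -0.07 for hearts of the same number, and at -0.06 to 0.09 otherwise. With so few hearts these correlations cannot settle the pairing, and the reported fit left the hearts unpaired. With the replicate block 2842 probes were called, Slc2a1 had an adjusted p of 0.0423, and no call among the members changed, but Egln3 passed as lower and a second monocarboxylate gene as higher. Each heart's array measured dim probes such as Slc16a3, Bsg, Akt2 and Insr close to background, which limits what can be said of their fold changes. Slc16a3 probe ILMN_3149256, Bsg, Akt2, Myc, Ppara, Srebf1, Cd163, Pvalb and Actn3 met the filter for testing through 1 group alone. Their p-values are therefore conditional on being above background in that group.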
